A study of Mus musculus with 12 samples.

Results

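Interferon-stimulated genes were followed in glomeruli and podocyte cultures of mice in which tamoxifen activates a Cre recombinase against floxed Foxc1 and Foxc2, both forkhead transcription factors. The 41 genes were taken from a list by name and found on the array through the RefSeq accession of each probe. All 41 were among the 20144 named genes on the array, and 40 of them were among the 15226 genes that passed the filter on dim probes and were tested. Oas3 was the member that did not pass. The rule that lists them uses no measured value, but the list was chosen with earlier results of these data known.

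Glomeruli, the capillary tufts in which the kidney filters blood, were isolated on day 7 from 2 mice given intraperitoneal tamoxifen on 3 successive days at the age of 8 weeks, and from 2 control mice that received no agent. Podocytes, which line the outer face of those capillaries with their foot processes, were grown out of glomeruli of adult mice as primary cultures and treated with the active form of tamoxifen for 4 days (2 samples) or 7 days (2 samples), beside mock-treated cultures of the same days (2 samples each). All 6 groups carried the inducible Cre and the floxed alleles, so treated samples had the drug together with any recombination it caused. The labels leave out the promoter that drives Cre and number the other floxed gene differently from sample to sample, so the pair of genes was taken from the title of the series. The labels name separate glomerular mice but do not say whether numbered cultures were grown separately. The spread between cultures may therefore be technical, and it enters the p-values of every comparison here.

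Levels below are log2 signals relative to the 75th percentile of the array, so 0 is the level of that percentile and negative values are dimmer spots. A difference is tamoxifen minus control or mock on that scale, with limma's standard error (SE), on which 1 unit is a 2-fold change of signal. Calls rest on 1 limma fit of the 6 group means. Its p-values were adjusted by Benjamini and Hochberg's method across the 15226 tested genes, with a threshold of 0.05. The fit pools 1 spread per gene over all 6 groups, so each SE and p-value mixes glomerular and culture arrays. For Isg15 the SD of the 2 arrays was 0.95 and 0.99 in the glomerular groups and 0.05 to 0.13 in the culture groups. The array design has 2 samples a group, and a two-sided exact permutation test of 2 against 2 cannot go below p = 0.333. Between 57.9% and 63.4% of spots were well above background on each array, 0 were saturated, and the 2 arrays of a group correlated at 0.983 to 0.990 across genes. Each tissue or culture day was hybridised on its own slide. As a check of the labels, Foxc2 differed by -2.82 in glomeruli (adjusted p = 0.0366). In treated cultures it was not well above background on any array, with an adjusted p of 0.00192 for day 4 and 0.000699 for day 7. The size of the fall is then a bound, at least 139-fold for the earlier day and at least 151-fold for the later one. Such a bound sets the bright group's mean against a floor for each dim array, namely the weakest signal that counts as well above background there, or the probe's own signal if that is stronger. Foxc1 was lower in all 3 comparisons without being called. All 8 podocyte markers examined were well above background in every group, with a summed linear level of 61.6 to 71.4 times the 75th percentile in cultures against 354 to 457 in control glomeruli.

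Interferons are cytokines released on sensing of foreign or misplaced nucleic acid. Type I interferons bind a receptor made of Ifnar1 and Ifnar2, whose kinases switch on a transcription factor complex that contains Stat2 and Irf9 and binds a promoter element called the interferon-stimulated response element (ISRE). Interferon gamma uses its own receptor and acts through a different element (GAS). The genes switched on in this way encode antiviral effectors, sensors of viral RNA, GTPases that attack the vacuoles of pathogens, and the machinery of antigen presentation, together with factors that amplify or limit the response.

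The promoter sequences of the genes at the centre of the results are shown first, because the response element is what these genes are known to share. RefSeq promoter windows (assembly GRCm38.p6, 250 bases before to 50 after the transcript start, 300 bases in all) were found for 32 of the 41 members. Dhx58, Gbp6, Iigp1, Oas2, Parp14, Parp9, Rtp4, Usp18 and Zbp1 had no entry. The ISRE was searched as GAAANNGAAA on both strands, allowing overlapping matches, and it was present in 16 of the 32 members (50%), against 3.99% of 27025 genes in the same table. The GAS element, searched as TTCNNNGAA, was present in 9 of the 32 (28.1%), against 9.55% of all genes. GAS matches that overlap an ISRE match were counted for both. A match describes the letters only and does not show that a factor binds there.

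Capitals mark bases that belong to an ISRE match on either strand. The Isg15 window at chr4:156200769-156201068 on the minus strand holds 3 overlapping matches, which begin at -78, -72 and -66 from the start, where the start base is counted as 0. It is printed whole, as is the Ifitm1 window at chr7:140967826-140968125 on the plus strand, which holds no match of either motif, because the 2 genes had the largest positive and negative glomerular differences.
Isg15: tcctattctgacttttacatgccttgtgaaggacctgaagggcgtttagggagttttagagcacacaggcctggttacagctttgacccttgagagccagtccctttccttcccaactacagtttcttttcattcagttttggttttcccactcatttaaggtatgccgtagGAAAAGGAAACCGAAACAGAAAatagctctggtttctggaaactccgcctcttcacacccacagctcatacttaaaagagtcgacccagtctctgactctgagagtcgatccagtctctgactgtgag
Ifitm1: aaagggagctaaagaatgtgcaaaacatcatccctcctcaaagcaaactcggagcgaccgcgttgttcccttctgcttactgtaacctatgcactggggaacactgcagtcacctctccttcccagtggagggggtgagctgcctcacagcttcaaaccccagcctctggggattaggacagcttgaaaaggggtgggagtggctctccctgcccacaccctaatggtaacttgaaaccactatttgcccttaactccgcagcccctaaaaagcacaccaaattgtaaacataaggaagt

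For 7 more members, 1 match is shown with 10 bases on each side. Only members whose window holds a match were eligible. Oasl1, Irf7, Oasl2 and Xaf1 had larger glomerular differences than Oas1a, which is shown, but no match in their windows. Ifit1 (chr19:34640639-34640938 on the plus strand), Ifit3 (chr19:34583279-34583578 on the plus strand), Oas1a (chr5:120907476-120907775 on the minus strand) and Gbp3 (chr3:142559794-142560093 on the plus strand) were among the largest glomerular differences. Igtp (chr11:58199306-58199605 on the plus strand), Irgm1 (chr11:48871371-48871670 on the minus strand) and Ifitm3 (chr7:141010695-141010994 on the minus strand) are members whose treated arrays lay above both controls in glomeruli and below both mocks on both culture days. The coordinates are those of the 300-base windows, and the sequences run in the direction of transcription.
Ifit1: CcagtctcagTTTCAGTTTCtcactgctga
Ifit3: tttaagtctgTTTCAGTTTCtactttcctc
Oas1a: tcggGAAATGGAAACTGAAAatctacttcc
Gbp3: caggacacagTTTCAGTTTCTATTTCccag
Igtp: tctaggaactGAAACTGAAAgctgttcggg
Irgm1: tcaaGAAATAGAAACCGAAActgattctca
Ifitm3: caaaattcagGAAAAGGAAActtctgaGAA

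In glomeruli, 35 of the 40 tested members had a higher mean after tamoxifen than in controls, where 42.7% of all genes did. The members' median difference was 0.50, and that of all genes was -0.05. None of the 40 was called higher, in a comparison where 1.73% of all genes were. Gbp6 and Ifitm1 were called lower, 2 of 40 members, where 0.893% of all genes were. At an unadjusted p under 0.05, limma placed 12 members higher (9.54% of all genes) and 2 lower (8.77% of all genes). Both treated arrays lay above both control arrays for 15 members (19.9% of all genes), and below both for 2 (28.1% of all genes). In bulk RNA of this kind, fewer cells of a type and less RNA per cell cannot be told apart.

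**Figure D1:**
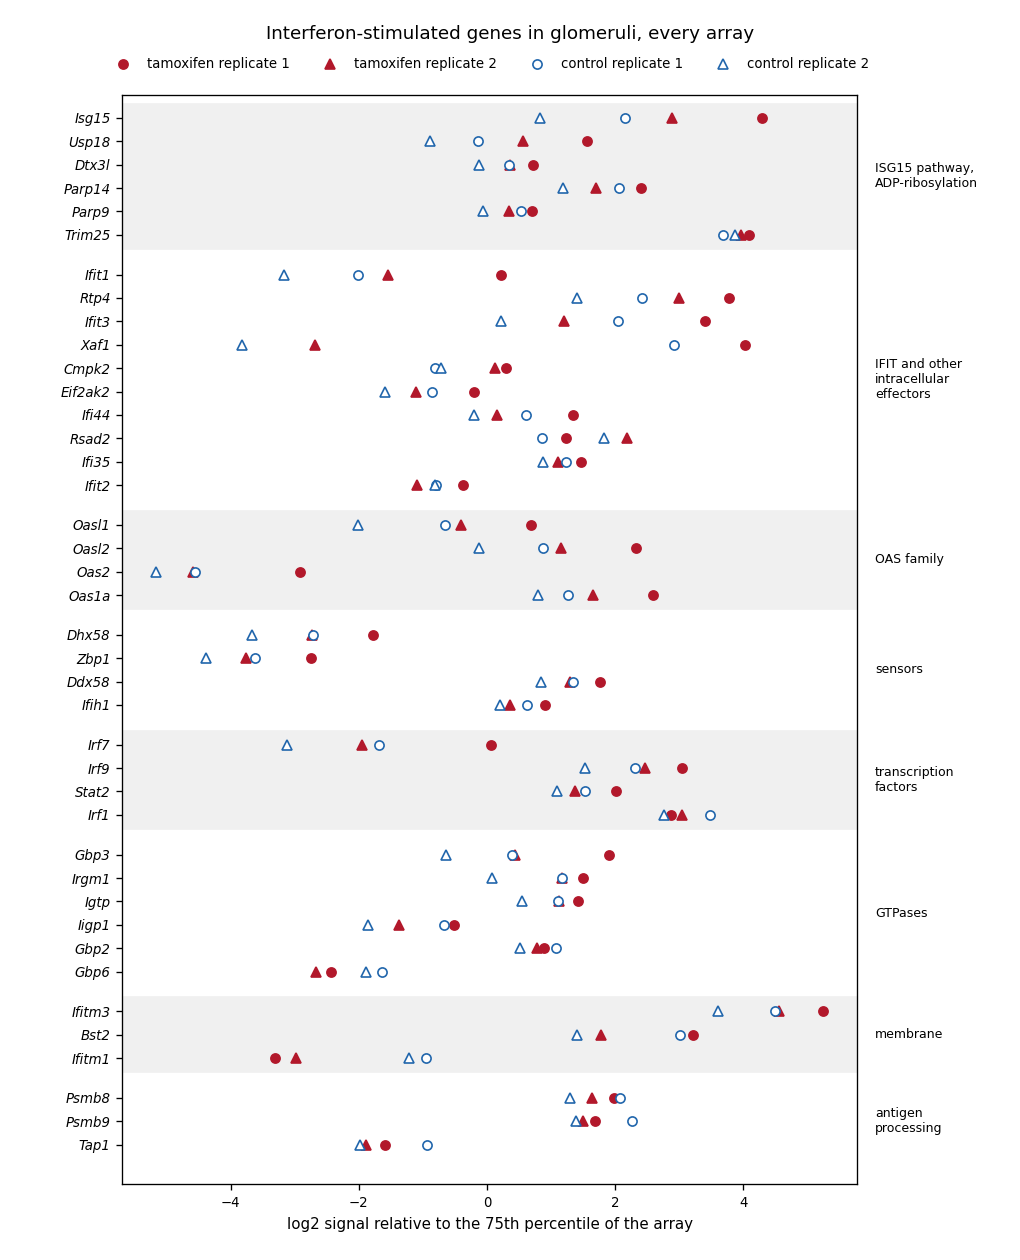
Log2 signal relative to the 75th percentile of the array (x axis) for the 40 tested interferon-stimulated genes (rows, grouped by role) on each of the 4 glomerular arrays. Filled red symbols are tamoxifen samples and open blue symbols control samples, with circles for replicate 1 and triangles for replicate 2. Circles lie right of triangles in both groups for 35 of 40 members.

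The glomerular samples of a group also differed among themselves. For 35 of the 40 members (87.5%) the replicate 1 array was above the replicate 2 array in both the treated and the control group, against 26.4% of all genes. Among the 4 arrays, treated replicate 1 had the highest level of 32 members and control replicate 2 the lowest level of 34. Without treated replicate 1, 27 of 40 members had a higher treated mean and the members' median difference was 0.19. Without control replicate 2 these values were 28 of 40 and 0.19. Without treated replicate 2, 34 members were higher, the median was 0.95, and Isg15, Usp18 and Ifit1 were called higher. Without control replicate 1, 37 members were higher and the median was 0.93.

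The ISG15 pathway and its partners gave the largest single difference. All 6 of these genes had a higher treated mean, and in 4 of them the treated arrays lay above both controls (19.9% of all genes). Isg15, a ubiquitin-like protein that is attached to other proteins, read 4.29 and 2.89 in treated glomeruli, against 2.16 and 0.82 in controls. Both treated arrays were above both controls, and control replicate 1 was closer to the treated samples than control replicate 2. The difference of 2.10 (SE 0.50, adjusted p = 0.0708) by limma missed the threshold. Usp18, the protease that removes ISG15 and damps the type I receptor, read 1.56 and 0.56 in treated and -0.15 and -0.89 in control glomeruli. The groups did not overlap, and the difference was 1.57 (SE 0.35, adjusted p = 0.0606).

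Trim25, a ubiquitin ligase that acts on the RNA sensor RIG-I, read 4.10 and 3.97 in treated and 3.69 and 3.88 in control glomeruli, a difference of 0.25. Dtx3l, a ubiquitin ligase that works in a complex with Parp9, differed by 0.42 with groups that did not overlap, and Parp9 itself by 0.29 with groups that did. Parp14, a mono-ADP-ribosyltransferase, read 2.40 and 1.70 in treated and 2.07 and 1.19 in control glomeruli, where treated replicate 2 lay between the controls.

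All 10 IFIT genes and other intracellular effectors had a higher treated mean. In 3 of them the treated arrays lay above both controls (19.9% of all genes). Ifit1, which binds viral RNA lacking the host cap modification, read 0.21 and -1.55 in treated and -2.01 and -3.17 in control glomeruli. The treated values were above both controls but spread over more than the gap between the groups, and the difference was 1.92 (SE 0.60, adjusted p = 0.137). Rtp4, an interferon-induced transporter protein with antiviral activity, read 3.78 and 2.99 in treated and 2.42 and 1.40 in control glomeruli. Its groups did not overlap, with a difference of 1.47 (SE 0.37, adjusted p = 0.0836). Cmpk2, a mitochondrial nucleotide kinase, read 0.30 and 0.13 in treated and -0.81 and -0.71 in control glomeruli. Both pairs were tight and apart, with a difference of 0.98 (SE 0.31, adjusted p = 0.146).

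Ifit3, a binding partner of Ifit1, read 3.40 and 1.20 in treated and 2.05 and 0.22 in control glomeruli. Treated replicate 2 was below control replicate 1, so the groups overlapped around a difference of 1.17. Xaf1, an antagonist of the apoptosis inhibitor XIAP, read 4.03 and -2.68 in treated and 2.93 and -3.82 in control glomeruli. Its replicate 2 arrays were dimmer than its replicate 1 arrays by more than 6 units in both groups, so that the difference of 1.12 turned to -2.25 without control replicate 2 and to -2.23 without treated replicate 1. A second Xaf1 probe read 1.01 and 0.89 in treated and 0.31 and 0.01 in control glomeruli, with groups apart by a difference of 0.79.

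Ifi44, an interferon-induced cytoplasmic protein, read 1.35 and 0.16 in treated and 0.62 and -0.21 in control glomeruli, and the groups overlapped. Rsad2, the radical enzyme viperin that makes a chain-terminating nucleotide, read 1.24 and 2.19 in treated and 0.86 and 1.83 in control glomeruli. It was an exception to the replicate order, its replicate 2 arrays being the higher ones in both groups. Eif2ak2, the RNA-activated kinase PKR that stops translation, read -0.21 and -1.11 in treated and -0.85 and -1.60 in control glomeruli, again with overlap. The remaining effectors, Ifi35, a partner of the signalling modulator Nmi, and Ifit2, another RNA-binding IFIT protein, differed by 0.23 and 0.07.

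All 4 tested OAS family members had higher treated means, with differences of 1.09 to 1.47 and a median of 1.24. The enzymes of this family make the second messenger that activates the antiviral nuclease RNase L. Oas1a read 2.59 and 1.65 in treated and 1.27 and 0.80 in control glomeruli, a difference of 1.09 (SE 0.51, adjusted p = 0.31). Oasl1, which is known to repress translation of Irf7 in mouse, read 0.69 and -0.41 in treated and -0.65 and -2.02 in control glomeruli, a difference of 1.47 (SE 0.63, adjusted p = 0.268). Oasl2, a related protein with a ubiquitin-like end, read 2.33 and 1.15 in treated and 0.87 and -0.13 in control glomeruli, a difference of 1.37 (SE 0.47, adjusted p = 0.178). In these 3 the groups did not overlap, and none was called. Oas2 read -2.92 and -4.58 in treated and -4.56 and -5.17 in control glomeruli, where treated replicate 2 lay just under control replicate 1.

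The 4 nucleic acid sensors were all higher on average with overlapping groups. Dhx58, the regulatory RIG-I relative LGP2, read -1.77 and -2.74 in treated and -2.71 and -3.66 in control glomeruli, a difference of 0.93 (SE 0.37, adjusted p = 0.234). Ifih1, the long RNA sensor MDA5, read 0.90 and 0.36 in treated and 0.62 and 0.20 in control glomeruli, a difference of 0.22. Ddx58, which encodes RIG-I, differed by 0.45, and Zbp1, a sensor of left-handed nucleic acid, by 0.76.

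Among the transcription factors, Irf7, which amplifies the type I response, read 0.07 and -1.95 in treated and -1.69 and -3.12 in control glomeruli. Treated replicate 1 was far above the other 3 arrays, and the difference was 1.46 (SE 0.64, adjusted p = 0.277). Irf9, the DNA-binding subunit of the type I complex, differed by 0.83 with groups apart, and its partner Stat2 by 0.38 with overlap. Irf1, a factor more typical of the interferon gamma response, read 2.87 and 3.05 in treated and 3.48 and 2.76 in control glomeruli, a difference of -0.16.

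The GTPases were divided. Gbp3, a guanylate-binding protein, read 1.91 and 0.43 in treated and 0.40 and -0.64 in control glomeruli, a difference of 1.29 (SE 0.55, adjusted p = 0.266) whose groups were separated by less than the spread within either. Of the immunity-related GTPases that act on pathogen vacuoles, Igtp read 1.43 and 1.12 in treated and 1.11 and 0.54 in control glomeruli. Irgm1 read 1.50 and 1.17 in treated and 1.17 and 0.08 in control glomeruli. In both the lower treated array was barely above the higher control. Iigp1, from the same family, read -0.51 and -1.37 in treated and -0.68 and -1.85 in control glomeruli with overlap, and Gbp2 differed by 0.04.

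Gbp6 went the other way. This guanylate-binding protein read -2.43 and -2.66 in treated and -1.64 and -1.88 in control glomeruli, and it fell by 0.79 (SE 0.13, adjusted p = 0.0315 by limma). The call held without control replicate 2 alone among the 12 single arrays left out, with adjusted p-values of 0.0197 to 0.998 over all alternatives. A second, dim Gbp6 probe, well above background on 3 of 12 arrays, pointed up in glomeruli by 0.78. For the other 11 members with a further probe, it gave the same glomerular direction as the probe used. In cultures it pointed the other way for Dtx3l, Oas1a, Ifih1 and Irf1 at day 4, and for Zbp1 and Iigp1 at day 7. The further probes of Ifih1, Irf1 and Zbp1 were well above background on at most 1 of 12 arrays. For Isg15, Cmpk2, Xaf1, Ddx58 and Irgm1 the culture directions were the same on both days.

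The 3 membrane effectors held the largest fall among the members. Ifitm1, a membrane protein that blocks viral entry, read -3.31 and -2.98 in treated and -0.94 and -1.22 in control glomeruli. It fell by 2.06 (SE 0.33, adjusted p = 0.0276 by limma), and each treated array was well below each control. The call was lost with normexp background correction, with the glomerular arrays alone, and without control replicate 1, treated replicate 1 or either day 4 tamoxifen array, which enters through the pooled spread. The adjusted p-values over the alternatives were 0.0260 to 0.268. Its relative Ifitm3, which restricts viruses in endosomes, read 5.25 and 4.56 in treated and 4.50 and 3.61 in control glomeruli, with groups just apart and a difference of 0.85. Bst2, the tether that holds budding virus at the cell surface, differed by 0.29 with overlap.

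The antigen processing genes showed no common direction. Psmb8, an immunoproteasome subunit, read 1.98 and 1.64 in treated and 2.08 and 1.30 in control glomeruli, a difference of 0.12. Psmb9, a second immunoproteasome subunit, read 1.69 and 1.50 in treated and 2.27 and 1.38 in control glomeruli, a difference of -0.23. Tap1, a subunit of the peptide transporter into the endoplasmic reticulum, read -1.60 and -1.88 in treated and -0.93 and -1.98 in control glomeruli, a difference of -0.28. In all 3 the groups overlapped, and the highest array was control replicate 1.

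Cell type markers differed between the same glomerular samples. The summed linear level of 18 leukocyte markers was 25.8 to 27.3 times the 75th percentile in treated glomeruli, against 37.1 to 41.2 in controls. Of the 18, 15 were below both controls (28.1% of all genes). The median difference of the 18 was -0.85, and Ms4a1 was called lower. The 8 tubule markers, of which 2 were called higher, summed to 76.6 to 117 in treated and 52.8 to 55 in control glomeruli. The 4 red blood cell markers, all called lower, summed to 0.648 to 6.09 in treated and 33.1 to 72.5 in control glomeruli. The 9 endothelial markers summed to 168 to 176 in treated and 204 to 242 in control glomeruli, and the 8 podocyte markers to 233 to 318 in treated and 354 to 457 in control glomeruli. Among podocyte markers Synpo was called lower (-1.32, adjusted p = 0.0363 by limma). The 6 mesangial and mural markers summed to 56.2 to 58.3 in treated and 32 to 68.9 in control glomeruli, with a median difference of 0.74, and Acta2 was called higher, at 2.54 and 2.79 in treated and 1.59 and 1.55 in control glomeruli (adjusted p = 0.0161 by limma). Their part in the interferon-stimulated gene results was not tested.

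In podocyte cultures the members lay on the other side of 0. At day 4, 4 of 40 had a higher mean with tamoxifen than in mock cultures, where 53.3% of all genes did, and the members' median was -0.37 against 0.02 for all genes. At day 7, 3 of 40 were higher, where 50.6% of all genes were, and the median was -0.30 against 0.00. Both treated cultures lay below both mocks for 25 members at day 4 (21.4% of all genes) and 20 at day 7 (18.9% of all genes). Both lay above for Eif2ak2 alone on each day, in a background of 29.2% of all genes at day 4 and 22.4% at day 7. With normexp background correction 21 of 40 members were higher at day 4, where 60.6% of all genes were, and 5 members were called higher (Ifi44, Cmpk2, Oas2, Zbp1 and Iigp1). At day 7 that correction left 5 of 40 higher and a median of -0.21.

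No member was called on either day by limma. At an unadjusted p under 0.05, 3 were lower at day 4 (4.56% of all genes) and 5 at day 7 (5.57% of all genes), and 0 were higher on either day (6.36% and 6.62% of all genes). Among all genes, 0.0919% were called higher and 0.118% lower at day 4, and 0.453% higher and 0.519% lower at day 7.

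**Figure D2:**
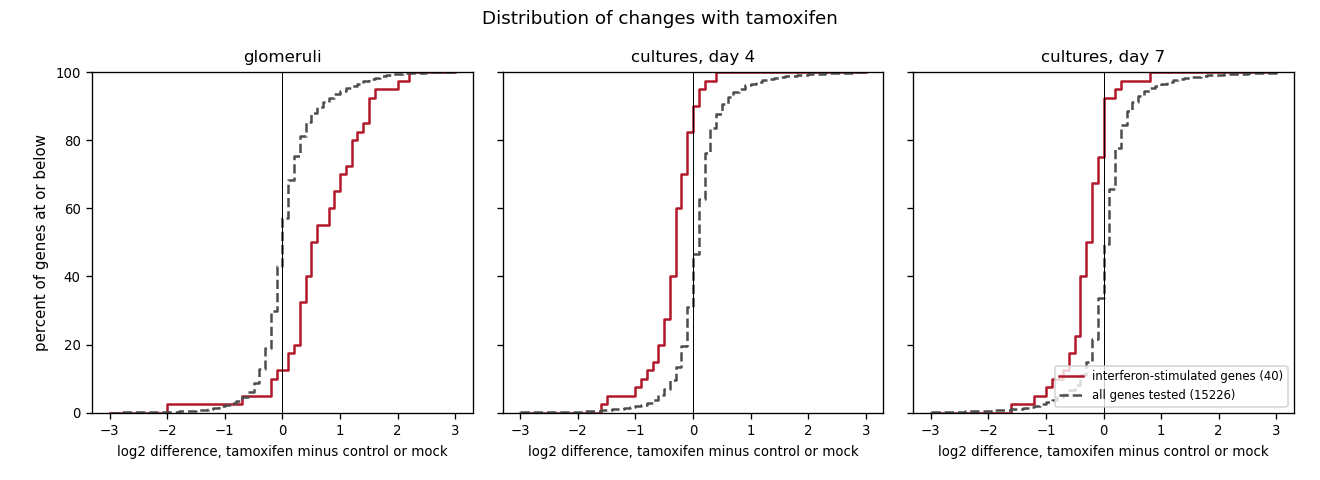
Cumulative percent of genes (y axis) at or below each log2 difference (x axis), tamoxifen minus control in glomeruli and tamoxifen minus mock at days 4 and 7 in cultures. The red line of the 40 interferon-stimulated genes lies right of the dashed line of all 15226 genes over most of the range in glomeruli (medians 0.50 and -0.05) and left of it in cultures (-0.37 and 0.02 at day 4, -0.30 and 0.00 at day 7).

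Ifitm1, near background after tamoxifen, had lower treated means on both days without being called. It read -5.89 and -5.42 with tamoxifen, well above background on 1 of 2 arrays, and -4.35 and -3.78 in mock cultures at day 4, a difference of -1.58 (SE 0.33, adjusted p = 0.11). At day 7 it read -5.88 and -6.78 with tamoxifen, not well above background on either array, and -4.77 and -4.57 in mock cultures (adjusted p = 0.0699). On both days the treated arrays were below both mocks, as in glomeruli, and for day 7 the size is a bound of at least 2.22-fold lower.

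With the probe used, Gbp6 behaved alike in all 3 settings, with treated arrays below untreated ones each time. It read -3.82 and -3.96 with tamoxifen and -3.27 and -3.45 in mock cultures at day 4, a difference of -0.53 (SE 0.13, adjusted p = 0.185). At day 7 it read -4.03 and -4.00 with tamoxifen and -3.36 and -3.34 in mock cultures, a difference of -0.67 (SE 0.13, adjusted p = 0.0718). Gbp6 and Ifitm1 were the 2 members whose treated arrays were below in all 3 comparisons. The second, dim Gbp6 probe pointed up in cultures too, by 0.12 at day 4 and 0.35 at day 7.

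Among the IFIT genes, Ifit2 and Ifit3 lay below both mocks on both days and Ifit1 at day 4. Ifit2 read -2.46 and -2.31 with tamoxifen and -1.66 and -1.20 in mock cultures at day 4, a difference of -0.96 (SE 0.31, adjusted p = 0.303). At day 7 it read -2.63 and -2.28 with tamoxifen and -1.78 and -1.05 in mock cultures, a difference of -1.04 (SE 0.31, adjusted p = 0.203). Its glomerular difference was 0.07. Ifit3 read -3.15 and -2.18 with tamoxifen and -2.0 and -0.09 in mock cultures at day 4, a difference of -1.62 (SE 1.02, adjusted p = 0.65). Its mock replicates were nearly 2 units apart. Ifit1 read -4.17 and -4.11 with tamoxifen and -3.44 and -2.74 in mock cultures at day 4, with groups apart, and -4.14 and -3.44 with tamoxifen and -3.37 and -3.63 in mock cultures at day 7, with overlap.

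Isg15 and Usp18, with the smallest adjusted p among positive glomerular differences, had small negative differences in culture. Isg15 read 1.28 and 1.39 with tamoxifen and 1.52 and 1.70 in mock cultures at day 4, and 1.49 and 1.56 with tamoxifen and 1.80 and 1.66 in mock cultures at day 7. The treated arrays were below both mocks each time, with differences of -0.28 and -0.21. Usp18 read -3.19 and -2.95 with tamoxifen and -2.81 and -2.43 in mock cultures at day 4, a difference of -0.45, and differed by -0.06 at day 7 with overlap. Irgm1, a member higher in treated glomeruli, was also below its mocks. It read 0.19 and 0.91 with tamoxifen and 1.34 and 1.48 in mock cultures at day 4, and 0.42 and 0.91 with tamoxifen and 1.46 and 1.70 in mock cultures at day 7. The groups were apart on both days, and the differences were -0.86 and -0.92 (SE 0.38, adjusted p = 0.383).

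All 6 GTPases had lower treated means on both days. Treated arrays lay below both mocks for 4 at day 4, where 21.4% of all genes did. For all 6 they did so at day 7, where 18.9% of all genes did. Igtp read -0.90 and -0.58 with tamoxifen and -0.36 and 0.06 in mock cultures at day 4, and -1.25 and -0.49 with tamoxifen and -0.37 and -0.01 in mock cultures at day 7. Ifi35, from the effectors, read 0.90 and 1.08 with tamoxifen and 1.27 and 1.59 in mock cultures at day 7, a difference of -0.44 (SE 0.18, adjusted p = 0.38), and its day 4 difference was -0.39, with groups apart on both days. Eif2ak2, the exception, read -0.44 and -0.42 with tamoxifen and -0.44 and -0.50 in mock cultures at day 4, and -0.34 and -0.39 with tamoxifen and -0.48 and -0.60 in mock cultures at day 7. Its differences of 0.04 and 0.18 were under 1 SE of the pooled fit, which includes the glomerular arrays. The SD of its own day 7 arrays was 0.09 in mock and 0.04 in treated cultures, against 0.53 in control and 0.64 in treated glomeruli.

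The other groups followed the same counts. All 6 genes of the ISG15 and ADP-ribosylation group were lower on average on both days, as were all 3 membrane effectors and all 3 antigen processing genes. Of the 10 IFIT genes and other effectors, 9 were lower on each day, and of the 4 OAS genes and the 4 sensors, 3 were lower on each day. Psmb8 read -1.09 and -1.12 with tamoxifen and -0.80 and -0.84 in mock cultures at day 4, and -1.44 and -1.39 with tamoxifen and -0.77 and -1.07 in mock cultures at day 7. The groups were apart on both days, with differences of -0.29 and -0.50. Parp14 read -0.97 and -0.74 with tamoxifen and -0.49 and -0.37 in mock cultures at day 4, and -1.20 and -0.60 with tamoxifen and -0.34 and -0.43 in mock cultures at day 7. Its groups were apart on both days too, with differences of -0.43 and -0.52. Zbp1 had the highest mean difference at day 7, 0.79 (SE 0.61), with overlapping arrays.

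Some culture values were at background. Oas2 was not well above background on any culture array, and Ifi44 on none at day 4, so no fold is given there. Cmpk2 was well above background on 1 mock and 0 treated arrays at day 4. Its groups overlapped there, and its difference of -0.63 was not called (adjusted p = 0.537 by limma). Iigp1 was above background in both mocks and neither treated culture at day 4. Its difference of -0.40 was not called (adjusted p = 0.83 by limma). No least fold is given for either gene.

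Leukocyte markers were also lower on average in treated cultures. Their summed linear level was 27.6 to 33.9 with tamoxifen and 30.7 to 47 in mock cultures at day 4, with a median difference of -0.37. At day 7 it was 25.5 to 33.7 with tamoxifen and 32 to 48 in mock cultures, with a median of -0.73. Mesangial and mural markers were split in direction. Their median differences were -0.17 at day 4 and -0.32 at day 7, with single markers from -0.89 to 0.93 and from -0.87 to 1.19. Their summed level was higher with tamoxifen, at 286 to 306 against 215 to 238 in mock cultures at day 4. At day 7 it was 264 to 266 with tamoxifen and 203 to 240 in mock cultures. Their part in the members' differences was not tested.

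**Figure D3:**
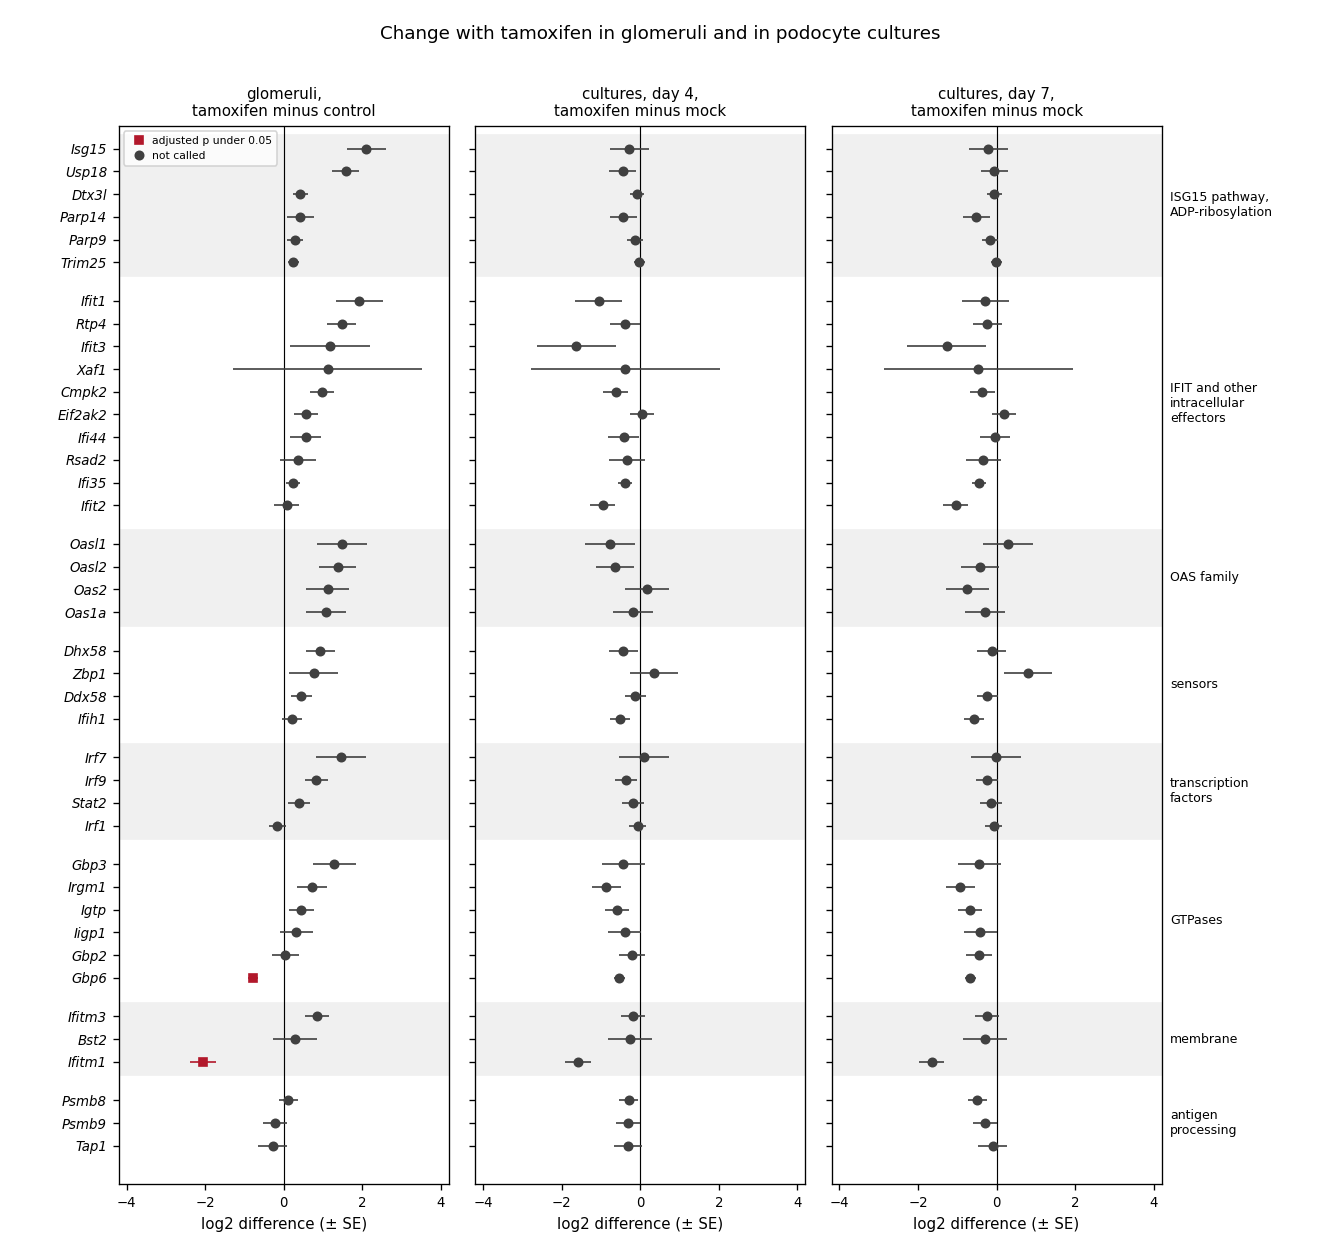
Log2 difference with its SE (x axis) for the 40 tested interferon-stimulated genes (rows, grouped by role) in glomeruli (tamoxifen minus control) and in cultures at days 4 and 7 (tamoxifen minus mock). Red squares mark the 2 called members, Gbp6 and Ifitm1 in glomeruli. Most points lie right of 0 in glomeruli (35 of 40) and left of 0 in cultures (36 and 37 of 40).

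The glomerular response was then set against the mean culture response in the same fit. The difference of responses was above 0 for 36 of 40 members, where 43.6% of all genes were, and its median was 0.84 against -0.05 for all genes. No member was called, where 0.604% of all genes were higher and 0.473% lower. At an unadjusted p under 0.05, limma placed 15 members higher (7.78% of all genes) and 0 lower (9.12% of all genes). The smallest adjusted p was that of Usp18, at 1.83 (SE 0.43, adjusted p = 0.0889). Isg15 came next, at 2.34 (SE 0.61, adjusted p = 0.111), and Ifit1 at 2.59 (SE 0.73, adjusted p = 0.13). Ifit3 had the largest value, 2.62, with an SE of 1.24. Without treated glomerular replicate 2, Isg15, Usp18 and Ifit1 were called, and the median ranged from 0.48 to 1.32 when single arrays were left out. With normexp the difference was above 0 for 30 of 40 members, where 33.9% of all genes were, and the median was 0.53.

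Counting directions, 30 of 40 members (75%) were higher in glomeruli and lower on both culture days, against 12.5% of all genes. The 30 include Ifi44 and Cmpk2, whose culture signals were at background on at least 1 of the days. Another 5 were lower in all 3 comparisons and 2 were higher in all 3. Isg15, Igtp, Irgm1 and Ifitm3 were the 4 members with treated arrays above both controls in glomeruli and below both mocks on both days. The response at day 7 minus that at day 4 was called for 0 members and 0 of all genes, with 0 members at an unadjusted p under 0.05 by limma (0.282% of all genes higher and 0.617% lower).

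The members with an ISRE match were set beside those without. In glomeruli the 15 tested members with a match had a median difference of 0.57, and the 16 without a match in their window had 0.34. The treated arrays were above both controls in 7 of the 15 and in 6 of the 16, against 19.9% of all genes. Every tested member with a match had a positive glomerular mean difference, from 0.04 for Gbp2 to 2.10 for Isg15. Those without ranged from -2.06 for Ifitm1 to 1.47 for Oasl1. At day 7 the medians were -0.31 with a match and -0.27 without. For GAS the glomerular medians ran the other way, 0.29 in the 9 members with a match and 0.63 in the 22 without. These are descriptions with no test.

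**Figure D4:**
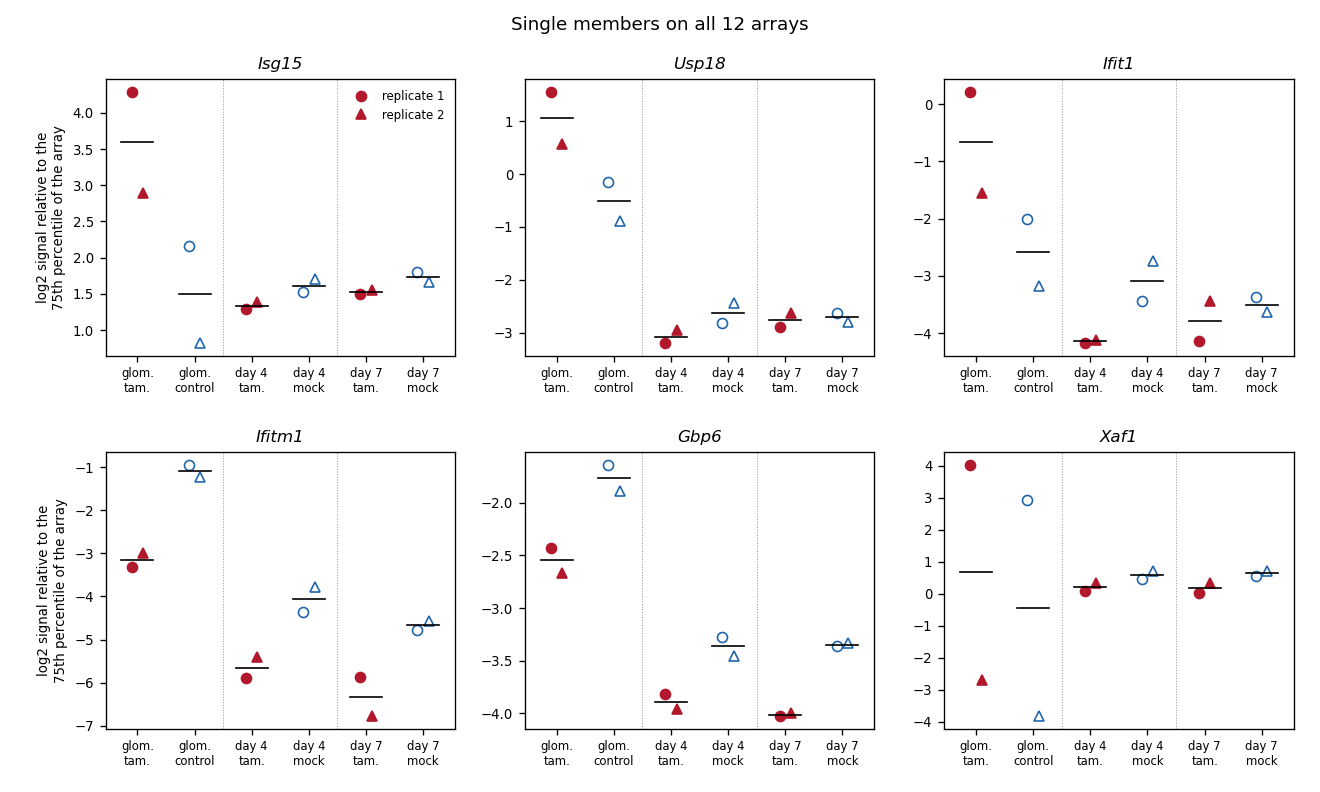
Log2 signal relative to the 75th percentile of the array (y axis) of 6 members on all 12 arrays, by group (x axis), with tamoxifen in filled red, control or mock in open blue, circles for replicate 1, triangles for replicate 2 and bars for group means. Isg15, Usp18 and Ifit1 are highest in treated glomeruli, Ifitm1 and Gbp6 are lower with tamoxifen in each pair, and Xaf1 splits by replicate number in glomeruli.

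The starting level of these genes differed between the culture and the tissue. Of the 40 members, 21 were called lower in mock cultures than in control glomeruli, in a comparison where 26% of all genes were. Another 2 were called higher, where 37.6% of all genes were. The 21 include Oas2, which passed the filter on dim probes through glomerular arrays alone, and Cmpk2, which passed through those and 1 mock array. Their lower level in culture is thus tied to the filter. At an unadjusted p under 0.05, limma placed 26 members lower (27.6% of all genes) and 2 higher (39.8% of all genes), and 8 of 40 had a higher mean in culture (57.9% of all genes). The members' median difference was -1.24, and that of all genes was 0.17. Scaling each array to its median instead moved all genes by 0.23 in this comparison, and the slide differs along with the tissue, so slide and tissue cannot be told apart.

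Effectors of the IFIT group were among the wide gaps. Rsad2 read -4.96 and -5.27 at day 4 and -5.16 and -6.10 at day 7 in mock cultures, where 1 of 2 day 7 arrays was well above background, against 0.86 and 1.83 in control glomeruli, a difference of -6.72 (SE 0.39, adjusted p = 4.2e-06). Ifi44 read -5.71 and -5.80 at day 4, not well above background, and -5.33 and -5.53 at day 7 in mock cultures, against 0.62 and -0.21 in control glomeruli. It was called lower (adjusted p = 4.2e-06) and was at least 58.5-fold lower in the day 4 mocks. Cmpk2 read -5.40 and -4.81 at day 4 and -5.06 and -5.57 at day 7 in mock cultures, well above background on 1 day 4 and 0 day 7 arrays, against -0.81 and -0.71 in control glomeruli. It was called lower (adjusted p = 5.18e-06) and was at least 23.5-fold lower in the day 7 mocks. For these 3 every mock array was more than 3 units below every control glomerular array. Rtp4 read -1.09 and -0.66 at day 4 and -0.76 and -1.07 at day 7 in mock cultures, against 2.42 and 1.40 in control glomeruli, a difference of -2.80 (SE 0.32, adjusted p = 0.000155).

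Antigen processing genes fell as a complete set, with 3 of 3 called lower. Psmb9 read -2.0 and -2.53 at day 4 and -2.09 and -2.46 at day 7 in mock cultures, against 2.27 and 1.38 in control glomeruli, a difference of -4.09 (SE 0.26, adjusted p = 6.78e-06). Psmb8 read -0.80 and -0.84 at day 4 and -0.77 and -1.07 at day 7 in mock cultures, against 2.08 and 1.30 in control glomeruli, a difference of -2.56 (SE 0.21, adjusted p = 2.57e-05). Tap1 read -3.77 and -3.59 at day 4 and -3.83 and -3.30 at day 7 in mock cultures, against -0.93 and -1.98 in control glomeruli, a difference of -2.17 (SE 0.32, adjusted p = 0.000541). No mock array reached a control array in any of them.

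The OAS family was lower too, with 4 of 4 called. For Oas2 this direction was fixed in advance, because it passed the filter on dim probes through the 4 glomerular arrays alone. Oas1a read -1.87 and -2.72 at day 4 and -1.62 and -2.88 at day 7 in mock cultures, against 1.27 and 0.80 in control glomeruli, a difference of -3.31 (SE 0.44, adjusted p = 0.000336). Oasl1 read -4.85 and -4.41 at day 4 and -4.28 and -5.73 at day 7 in mock cultures, where 1 of 2 day 7 arrays was well above background, against -0.65 and -2.02 in control glomeruli, a difference of -3.48 (SE 0.55, adjusted p = 0.000788). Oasl2 read -1.64 and -1.88 at day 4 and -1.39 and -2.35 at day 7 in mock cultures, against 0.87 and -0.13 in control glomeruli, a difference of -2.18 (SE 0.41, adjusted p = 0.00207). Oas2 was not well above background in any mock culture and was at least 1.79-fold lower there (adjusted p = 0.00406 by limma).

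Several members of other roles were also called lower. Usp18 read -2.81 and -2.43 at day 4 and -2.62 and -2.80 at day 7 in mock cultures, a difference of -2.15 (SE 0.30, adjusted p = 0.000463) from control glomeruli. Parp14 read -0.49 and -0.37 at day 4 and -0.34 and -0.43 at day 7 in mock cultures, a difference of -2.04 (SE 0.29, adjusted p = 0.000508). Trim25 read 3.16 and 2.97 at day 4 and 3.03 and 2.81 at day 7 in mock cultures, a difference of -0.79 (SE 0.12, adjusted p = 0.000613). All 3 belong to the ISG15 and ADP-ribosylation group, whose namesake Isg15 differed by 0.18 and was not called (adjusted p = 0.733). Ifih1 read -1.37 and -1.18 at day 4 and -1.33 and -1.06 at day 7 in mock cultures, a difference of -1.65 (SE 0.22, adjusted p = 0.000341). Irf1 read 1.83 and 1.88 at day 4 and 1.89 and 1.75 at day 7 in mock cultures, a difference of -1.28 (SE 0.19, adjusted p = 0.000542). Both lay below their control glomerular arrays without overlap. Dhx58 read -4.06 and -3.99 at day 4 and -4.17 and -4.12 at day 7 in mock cultures, a difference of -0.90 (SE 0.32, adjusted p = 0.0383).

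Among GTPases and membrane proteins, Iigp1 read -4.63 and -5.06 at day 4 and -4.01 and -4.51 at day 7 in mock cultures, a difference of -3.29 (SE 0.36, adjusted p = 0.000119) from control glomeruli. Ifitm1 read -4.35 and -3.78 at day 4 and -4.77 and -4.57 at day 7 in mock cultures, a difference of -3.29 (SE 0.28, adjusted p = 3.24e-05). Gbp6 read -3.27 and -3.45 at day 4 and -3.36 and -3.34 at day 7 in mock cultures, a difference of -1.59 (SE 0.12, adjusted p = 1.31e-05). These 3 were lower in all 4 mock cultures than in both control glomeruli. Igtp read -0.36 and 0.06 at day 4 and -0.37 and -0.01 at day 7 in mock cultures, a difference of -1.0 (SE 0.27, adjusted p = 0.0121), a call lost without control glomerular replicate 1.

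Irgm1 and Eif2ak2 were the 2 members called higher in mock cultures. Irgm1 read 1.34 and 1.48 at day 4 and 1.46 and 1.70 at day 7 in mock cultures, against 1.17 and 0.08 in control glomeruli, a difference of 0.87 (SE 0.33, adjusted p = 0.046). Eif2ak2 read -0.44 and -0.50 at day 4 and -0.48 and -0.60 at day 7 in mock cultures, against -0.85 and -1.60 in control glomeruli, a difference of 0.72 (SE 0.27, adjusted p = 0.0453). Both calls were close to the threshold. With single arrays left out, each held in 3 of 12 cases, and that of Dhx58 in 5 of 12. The 17 members not called had differences of -2.07 to 1.06, the ends being Ifit3 and Xaf1. The Xaf1 value rests on control glomeruli that read 2.93 and -3.82. Its second probe read -0.75 and -0.77 at day 4 and -0.89 and -0.90 at day 7 in mock cultures. That probe read 0.31 and 0.01 in control glomeruli, so it was lower in culture. The summed leukocyte markers, for comparison, were 30.7 to 48 in mock cultures and 37.1 to 41.2 in control glomeruli, but single markers differed in both directions. Cd3g, Ms4a1 and Itgax were among those not well above background in any mock culture, while C1qa (well above background on 1 of 2 control arrays) and C1qb were higher in mock cultures by 6.64 and 4.99. Endothelial markers summed to 6.47 to 8.84 in mock cultures, against 204 to 242 in control glomeruli. Their part in these differences was not tested.

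Between mock cultures, day 7 minus day 4 was called for 0 of 40 members by limma, where 0.0263% of all genes were called higher and 0.00657% lower. At an unadjusted p under 0.05, 0 members were higher (5.33% of all genes) and 0 lower (1.15% of all genes). The mean was higher at day 7 for 21 of 40 members, where 52.2% of all genes were, and member differences ran from -0.60 to 0.69.

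**Figure D5:**
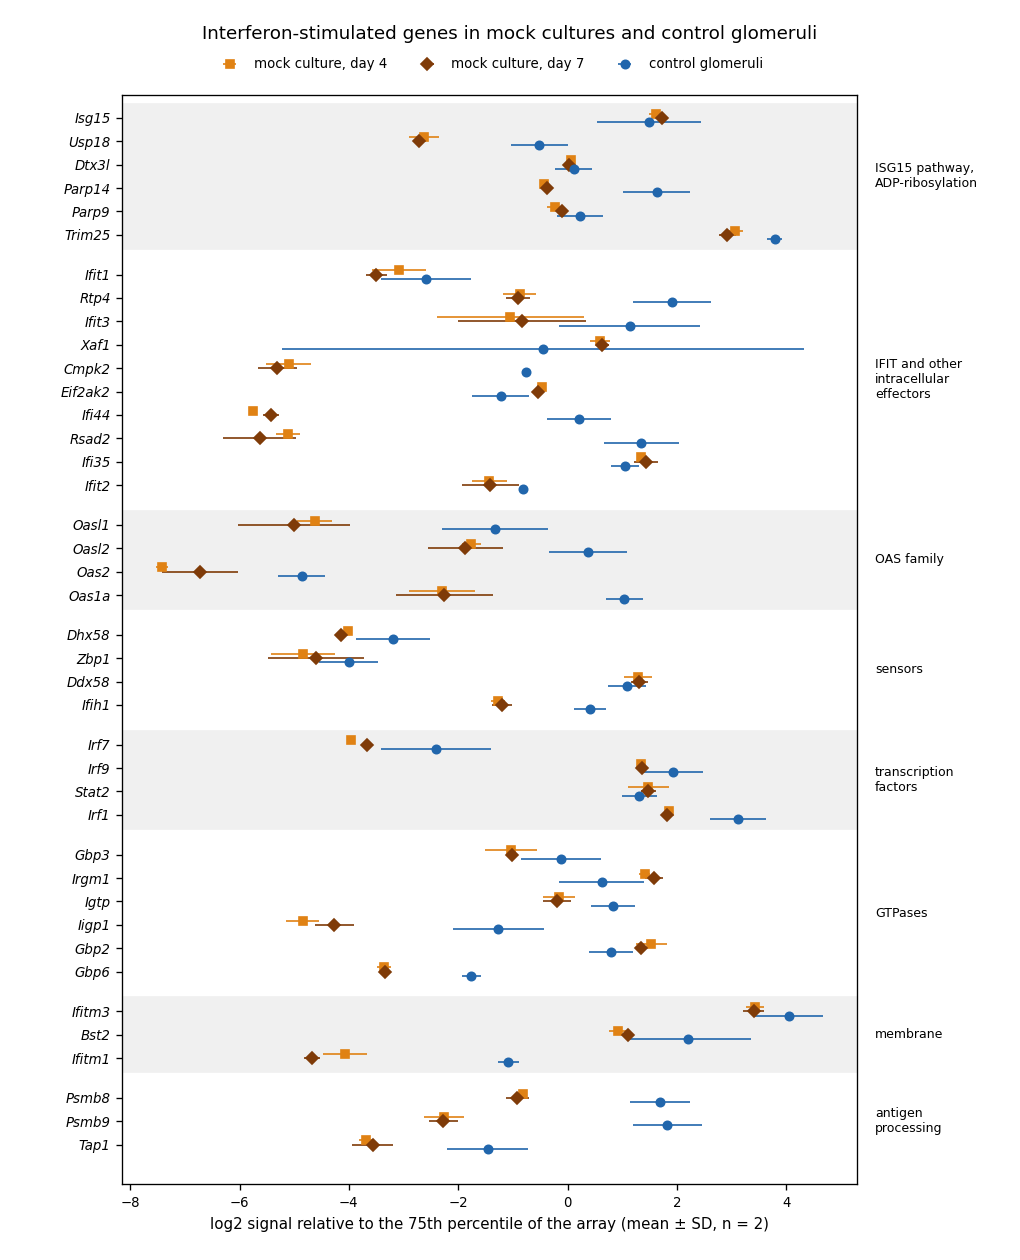
Mean log2 signal relative to the 75th percentile of the array with SD (x axis, n = 2) for the 40 tested interferon-stimulated genes (rows, grouped by role) in mock cultures at day 4 (orange squares), mock cultures at day 7 (brown diamonds) and control glomeruli (blue circles). Rsad2 and Psmb9 lie far lower in mock cultures, at differences of -6.72 and -4.09. Ifi44 at day 4, Cmpk2 at day 7 and Oas2 on both days were not well above background in mock cultures, so their gaps are bounds.

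The rest of the pathway was examined with 109 further genes, of which 95 were tested. In glomeruli 0 of 95 were called in either direction by limma. At an unadjusted p under 0.05, 3 were higher (9.54% of all genes) and 7 lower (8.77% of all genes). Of the 95, 49 had a higher treated mean, where 42.7% of all genes did, with a median difference of 0.02. All 6 receptor genes were tested and none was called: Ifnar1 differed by -0.23, Ifnar2 by 0.09, Ifngr1 by -0.37 and Ifngr2 by 0.15. Of 10 interferon ligand genes on the array 5 passed the filter, and 0 of these had a higher treated mean in glomeruli. Signal transducers had a median difference of -0.13, and the kinase Jak1 differed by -0.38 (SE 0.09, adjusted p = 0.0692).

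The largest glomerular differences outside the members were split in direction. Ifi27l2a, a small interferon-induced protein, read 2.59 and 0.77 in treated and 0.07 and -0.48 in control glomeruli, a difference of 1.89 (SE 0.98, adjusted p = 0.359). Ccl5, a chemokine made by T cells among others, read -1.21 and -0.22 in treated and 1.49 and 0.05 in control glomeruli, a difference of -1.48 (SE 0.46, adjusted p = 0.135). The groups of both were apart, in opposite directions. Ifit3b, a near-identical copy of Ifit3 whose probes may share signal, read 1.85 and 0.10 in treated and 0.50 and -1.09 in control glomeruli, a difference of 1.27. Herc6, the ligase that attaches ISG15 in mouse, read -4.61 and -3.38 in treated and -2.16 and -3.34 in control glomeruli, a difference of -1.24. Apol9b, an apolipoprotein L, differed by 1.12 with overlap, and Trim34a, a tripartite motif protein, by 0.97 (SE 0.22, adjusted p = 0.0661) with groups apart.

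In cultures 0 of the 95 were called at day 4, and Samhd1 alone was called at day 7. Samhd1, the enzyme that destroys the nucleotides viruses need, read 2.58 and 2.94 with tamoxifen and 4.19 and 4.59 in mock cultures at day 7, and it fell by 1.63 (SE 0.25, adjusted p = 0.0327 by limma). At day 4 it read 2.81 and 3.29 with tamoxifen and 4.32 and 4.76 in mock cultures, a difference of -1.49 (SE 0.25, adjusted p = 0.0672). In glomeruli it differed by -0.13. Over the 95 genes, 33 had a higher mean with tamoxifen at day 4 (53.3% of all genes) and 27 at day 7 (50.6% of all genes).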

How the data were processed

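Single-colour Agilent arrays of 12 samples in 6 groups of 2 were analysed. Per the file headers, the deposited scanner files hold spot intensity values from Agilent Feature Extraction 11.5.1.1, whose processed signal is already background-corrected. The value table the authors deposited holds log2 values of the same arrays; its scale and direction followed the scanner values, its column medians were -4.14 to -3.82, and its genes were not centred. From the processed signal, outlier spots were left out, the log2 signal minus the array's 75th percentile was taken, and spots of a probe were averaged. The filter kept probes that 2 or more of the 12 arrays measured well above background. They were named through RefSeq accessions (GRCm38.p6; 26581 of 39429 probes had 1 symbol and 12848 none), and the probe with the highest mean stood for its gene. limma 3.58.1 in R 4.3.3 fitted the 6 group means (lmFit, eBayes) with Benjamini-Hochberg adjustment over 15226 genes. The number of arrays limits the precision.

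Array values are given for members called in any of 7 comparisons or among the 12 largest glomerular differences, and for Ifit2, Ifi35 and Ifitm3, added after their values were seen. Outside the members, genes called with tamoxifen and the 6 largest glomerular differences are named; Ifnar1, Ifnar2, Ifngr1, Ifngr2 and Jak1 were added for their role, and some listed genes are not reported here by name. The members, the further pathway genes, the marker lists and the promoter motifs were chosen with earlier results of these data known. Alternatives covered background correction (normexp with an offset of 50 on the median signal and median background, since the files used here give no mean signal), scaling, filters, probe choice, the authors' table, a replicate block and leaving out each array.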

Additional observations from a re-analysis of the deposited data

How the results depend on the processing

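Of the members called in glomeruli (2), 0 were called with normexp, 0 with the glomerular arrays alone, 1 with probes of a gene averaged and 0 to 4 with single arrays left out. The 4 were Isg15, Usp18, Ifit1 and Ifitm1, without tamoxifen replicate 2. The members' median difference in glomeruli kept its sign, from 0.19 to 0.95 with single arrays left out, and that of the glomerular minus the culture response ran from 0.48 to 1.32, with 0 to 3 members called. Xaf1 ran from -2.25 without glomerular control replicate 2, and -2.23 without tamoxifen replicate 1, to 4.50 without control replicate 1, and so changed sign. At day 4, normexp gave 5 members called higher, where none was called otherwise. The cause was not tested. With the replicate number as a block, 15 members were called in glomeruli (13 higher and 2 lower, where 3.47% and 2.75% of all genes were), 2 at day 7 (Xaf1 and Gbp6, lower, 2.37% of all genes), 17 for the glomerular minus the culture response (all higher, 2.63% of all genes) and 36 for mock cultures against control glomeruli (5 higher and 31 lower, 41.5% and 29% of all genes), against 23 without it. The deviations of same-numbered glomerular arrays correlated at 0.21 across genes and those of same-numbered cultures at 0.39 to 0.55, but with 2 pairs a comparison and no label that ties the numbers together, the numbers are not shown to pair samples. A slide block could not be estimated beside the 6 group means, since each slide holds 1 tissue or culture day. On the glomerular slide the treated arrays took positions 3 and 4 and the control arrays positions 1 and 2, so position and treatment cannot be told apart. Of the single-gene values under the alternatives in glomeruli, 253 stayed on the same side of the threshold, 20 lost and 11 gained a call, and 2 changed sign. For mock cultures against control glomeruli, 447 stayed and 36 lost a call. Signals near background limit Oas2, Cmpk2, Ifi44, Iigp1 and Ifitm1 in cultures.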
